A study of Mus musculus with 11 samples.

Results

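The 4 microphthalmia (MiT) transcription factor genes, Tfec, Mitf, Tfeb and Tfe3, were followed together with Gpnmb, a membrane glycoprotein gene known as a Mitf target, in dendritic cells sorted from mouse spleen. The 5 genes were chosen by their measured log2 differences between the groups on these same arrays, Tfec first, and by kinship with it, so those differences are given as a description, without a test. They were taken from 22180 measured genes, each represented by the probeset with the highest mean over all 11 arrays; each of the 5 had 1 probeset. Exposed cells were measured on 5 arrays of dendritic cells from mice that had received Eµ-Myc lymphoma cells, a transferred B cell lymphoma driven by a Myc transgene, and naive cells on 6 arrays from naive mice. All mice carried the C57BL/6 background, and the labels give neither age nor further treatment. The sort took CD11c+ MHC class II+ splenocytes, with over 95% purity, from spleens in which the lymphoma formed 10 to 36% of the lymphocytes. Nothing in the labels ties an array to a single mouse, and p-values therefore measure the spread between these arrays, which may be technical. The question was how dendritic cells differ after exposure to lymphoma.

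MiT factors are basic helix-loop-helix leucine zipper proteins that bind DNA as dimers with one another at E-boxes, chiefly CACGTG and CATGTG. Tfeb and Tfe3 switch on genes of lysosomes and autophagy through CACGTG sites named CLEAR elements, and they are held in the cytoplasm when the kinase complex mTORC1 phosphorylates them on the lysosome. Their activity is therefore set largely at the protein level, which arrays do not measure. Mitf directs pigment genes in melanocytes and resorption genes in osteoclasts, whereas Tfec is found mainly in macrophages and related myeloid cells, where interleukin 4 induces it. In dendritic cells Tfeb is known for favouring presentation on MHC class II, and the Gpnmb protein, also called DC-HIL, binds syndecan-4 on T cells and restrains them.

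Promoter sequences are shown for 4 genes because the results turn on them: Tfec and Gpnmb, the members with the largest differences, and Lamp1 and Fnip1, the lysosomal gene and the MiT factor control gene that passed the test. Each is the 250 bases before the annotated start in RefSeq, build GRCm38.p6, written 5′ to 3′ on the gene's strand. Capitals mark matches on either strand to CACGTG, to CATGTG, to TCACGTG, which contains CACGTG, and to AGGAAGT, a core bound by ETS factors such as PU.1. The last motif was chosen after the Tfec window had been read.
Tfec, chr6:16898442-16898691, minus strand: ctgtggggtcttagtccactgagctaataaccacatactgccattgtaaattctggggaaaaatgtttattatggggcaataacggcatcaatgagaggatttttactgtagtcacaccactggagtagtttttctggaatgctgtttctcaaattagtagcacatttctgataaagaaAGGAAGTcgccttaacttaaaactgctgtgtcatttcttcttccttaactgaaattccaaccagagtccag
Gpnmb, chr6:49036268-49036517, plus strand: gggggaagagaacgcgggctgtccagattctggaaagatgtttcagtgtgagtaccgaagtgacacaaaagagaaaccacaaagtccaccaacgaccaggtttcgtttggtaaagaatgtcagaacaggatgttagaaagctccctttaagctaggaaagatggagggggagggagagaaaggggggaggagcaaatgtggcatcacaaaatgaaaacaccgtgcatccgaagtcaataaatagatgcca
Lamp1, chr8:13158911-13159160, plus strand: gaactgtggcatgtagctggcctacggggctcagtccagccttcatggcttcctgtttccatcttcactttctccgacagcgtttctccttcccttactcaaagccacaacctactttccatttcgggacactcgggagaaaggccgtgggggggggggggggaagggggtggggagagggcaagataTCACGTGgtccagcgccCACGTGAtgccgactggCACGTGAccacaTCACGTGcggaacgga
Fnip1, chr11:54437929-54438178, plus strand: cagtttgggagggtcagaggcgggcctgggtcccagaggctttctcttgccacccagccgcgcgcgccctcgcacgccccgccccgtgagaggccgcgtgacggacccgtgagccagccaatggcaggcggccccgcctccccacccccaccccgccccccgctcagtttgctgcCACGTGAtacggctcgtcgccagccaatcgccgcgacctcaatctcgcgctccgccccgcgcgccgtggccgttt

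The Lamp1 window held 4 CACGTG sites, which began 61, 45, 28 and 15 bases before the start, and the Fnip1 window held 1, which began 75 bases before it. In the Tfec window the AGGAAGT match began 71 bases before the start. The Gpnmb window had no match to any of these letters. CACGTG was found in 0 of the 10 windows of the 5 members, against 6.02% of 32851 windows of all genes, and CATGTG in 0 of 10 against 12.3%. TCACGTG was found in 3.13% of all windows and AGGAAGT in 7.69%.

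Tfec was the member with the largest difference. It measured 7.27, 6.76, 7.11, 6.41 and 6.67 on exposed arrays 1, 2, 3, 4 and 6, against 5.69, 6.45, 5.47, 5.99, 5.76 and 5.53 on naive arrays 1 to 6 (log2 expression). Of the exposed arrays 4 lay above every naive array; exposed array 4 lay just below naive array 2, the highest naive array by a wide margin. Group means were 6.84 ± 0.35 (SD, n = 5) in exposed cells and 5.81 ± 0.36 (SD, n = 6) in naive cells, a difference of 1.03 ± 0.18 (SE), or 2.04-fold. Of the 22180 genes 20 had a larger difference in the same direction, a rank that restates the choice of Tfec by this difference. For Gpnmb the number of genes with a larger rise was 264, and for Mitf it was 1866. In naive cells Tfec lay close to the level of genes that these cells do not use: the 95th percentile of 1105 olfactory receptor genes, 5.6, exceeded naive arrays 3 and 6.

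Gpnmb was also higher in exposed cells. Exposed array 3 was high for both genes, whereas exposed array 1, the highest for Tfec, was the second lowest exposed array for Gpnmb. It measured 5.87, 6.02, 6.46, 6.32 and 5.81 on exposed arrays 1, 2, 3, 4 and 6, against 5.82, 5.63, 5.69, 5.75, 5.50 and 5.50 on naive arrays 1 to 6. Again 4 exposed arrays lay above all naive arrays, and exposed array 6 lay within the naive range. The means were 6.09 ± 0.28 (SD, n = 5) in exposed and 5.65 ± 0.13 (SD, n = 6) in naive cells, a difference of 0.44 ± 0.11 (SE), or 1.36-fold. Naive arrays 5 and 6 were below the olfactory receptor mark, so Gpnmb was dim in these cells.

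Mitf differed little. It measured 7.09, 6.96, 7.12, 6.90 and 6.91 on the exposed arrays, against 6.82, 6.91, 6.84, 6.83, 6.90 and 6.67 on the naive arrays. Exposed arrays 1, 2 and 3 lay above every naive array, and exposed arrays 4 and 6 did not. The difference was 0.17 ± 0.06 (SE), or 1.12-fold, with means of 7.0 ± 0.10 (SD, n = 5) in exposed cells and 6.83 ± 0.08 (SD, n = 6) in naive cells. Mitf is transcribed from several promoters, and its single probeset does not separate the melanocyte form from the others.

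Tfeb and Tfe3, the lysosomal regulators, differed by less than 0.1 on the log2 scale. Tfeb measured 6.55, 6.69, 6.83, 6.62 and 6.90 on the exposed arrays, against 6.82, 6.80, 6.90, 6.79, 6.76 and 6.79 on the naive arrays, a difference of -0.09 ± 0.07 (SE). Exposed arrays 1, 2 and 4 lay below all naive arrays and the other two within the naive range. Tfe3 measured 9.51, 9.41, 9.49, 9.50 and 9.54 on the exposed arrays, against 9.49 to 9.54 with a median of 9.50 on the naive arrays, a difference of -0.01 ± 0.04 (SE). Its naive SD of 0.02 (n = 6) stood beside a median SD of 0.12 over all genes in the same group, and the sign of its difference changed between scalings and array subsets. None of the 5 genes separated the groups completely. Over all genes 2.29% did, 1.42% with every exposed array above every naive array and 0.875% with every exposed array below.

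**Figure D1:**
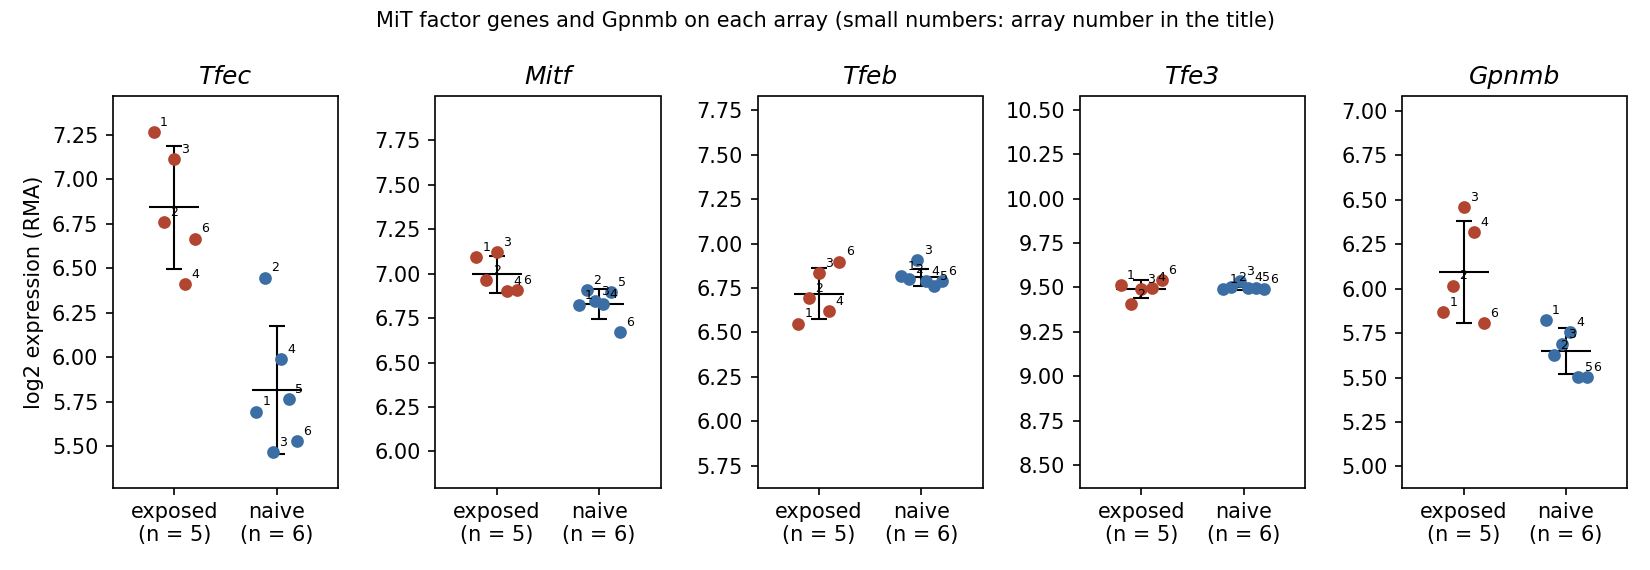
Log2 expression (RMA) of Tfec, Mitf, Tfeb, Tfe3 and Gpnmb on each array, exposed left of naive; every panel spans the same number of log2 units, bars give mean and SD, and small numbers are array numbers. For Tfec and Gpnmb 4 of the 5 exposed arrays lie above all 6 naive arrays, and Tfe3 is nearly level.

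The arrays of both groups were cut by title number into sets 1 to 3 and 4 to 6. The cut was made here, and the labels name no such sets. After removal of group means, exposed and naive arrays of the same set correlated at 0.127 on average over all genes (15 pairs). The 15 pairs across sets gave -0.127, a value that the removal of group means makes nearly the mirror of the first. Differences were also taken inside each set. The Tfec difference was 1.18 in the set 1 to 3 and 0.78 in the set 4 to 6, and blocking on the set gave 1.0. Gpnmb gave 0.40, 0.48 and 0.43 in the same order, and Mitf gave 0.20, 0.10 and 0.16. For Tfeb the values were -0.15, -0.02 and -0.09, and for Tfe3 -0.04, 0.02 and -0.01. Tfec, Gpnmb, Mitf and Tfeb had the same sign in both sets. The sets are parts of the arrays on which the members were chosen, so this agreement is a description and no independent repeat.

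Among the members, Mitf followed Tfec most closely. After group means were removed, the correlation of Tfec with Mitf over the 11 arrays was 0.74, while that with Gpnmb was -0.03, with Tfeb -0.20 and with Tfe3 -0.02. The remaining 6 pairs lay between -0.16 (Tfe3 and Gpnmb) and 0.29 (Tfeb and Tfe3). These are descriptions over arrays that share a scaling, a number set and a sort. Tfec and Gpnmb were thus both higher in exposed cells without following each other from array to array.

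Because Tfec and Gpnmb are macrophage genes, the markers of other spleen cells were examined on the same arrays. The 12 measured red pulp macrophage markers, among them Spic, Vcam1, Hmox1, C1qa and Cd5l, averaged 10.48, 9.46, 8.57, 8.42 and 8.35 on exposed arrays 1, 2, 3, 4 and 6, against 8.49, 8.89, 7.75, 8.28, 8.40 and 8.14 on naive arrays 1 to 6. Exposed arrays 1 and 2 lay above all naive arrays and the other 3 within the naive range. Of the 12 markers 11 had positive differences with a median of 0.69, and 0 passed limma's test (7 at an unadjusted p under 0.05). Over all 22180 genes 2710 were at an unadjusted p under 0.05, and 53.5% of differences were positive. By their means over the 11 arrays all 12 markers were above the olfactory receptor mark. Cd163 was above it on 9 of the 11 arrays and Siglec1 on 10. Cd5l had the largest difference, 1.89 (limma adjusted p = 0.0693).

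On the 3 exposed arrays with macrophage marker levels inside the naive range, Tfec measured 6.41 to 7.11, against 5.47 to 6.45 on the naive arrays. The marker means of these 3 arrays, 8.57, 8.42 and 8.35, were above the naive mean of 8.33 and below naive array 2 at 8.89. Single markers differed. Cd5l on exposed arrays 3 and 4 (7.55 and 7.48) lay above every naive array (up to 7.38). Cd163 and Siglec1 lay below every naive array on exposed arrays 4 and 6. Without exposed arrays 1 and 2 the Tfec difference was 0.92, and with the macrophage marker mean as a covariate it was 0.77. Naive array 2, which had the highest marker level of the naive arrays, also had the highest naive Tfec value. After removal of group means, Tfec and the marker mean correlated at 0.66 over 11 arrays. Gpnmb gave -0.36, and its difference was 0.55 without exposed arrays 1 and 2 and 0.53 with the covariate. In a sorted bulk sample, more cells of a type and more RNA per cell cannot be told apart.

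**Figure D2:**
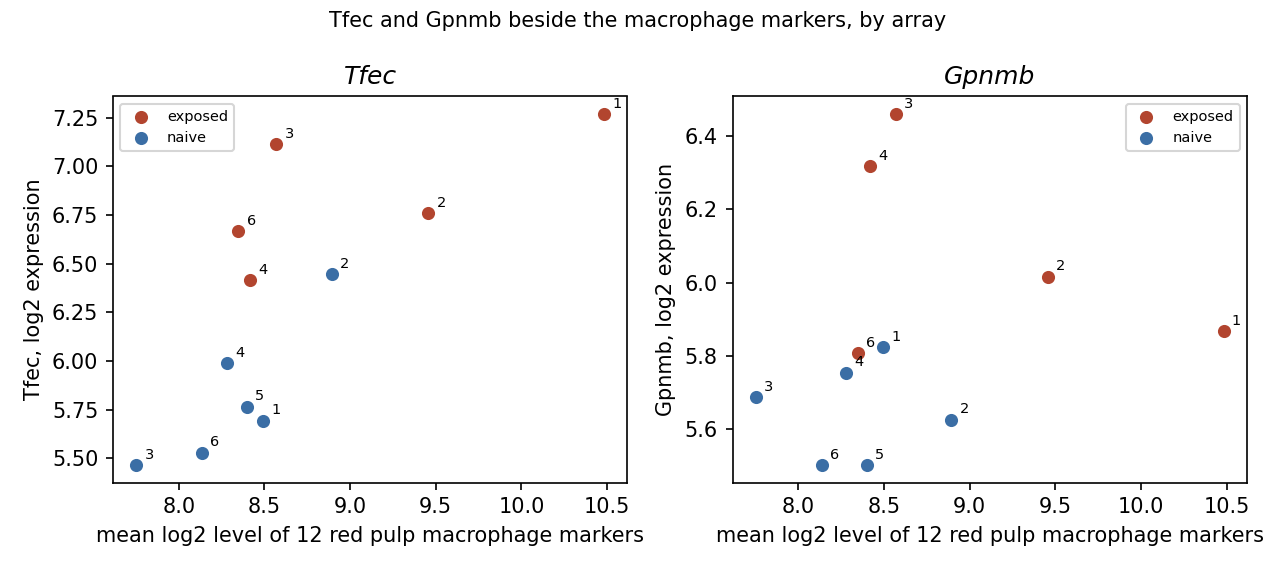
Tfec (left) and Gpnmb (right), log2 expression, against the mean log2 level of 12 red pulp macrophage markers, with 1 point per array and array numbers beside the points. Exposed arrays 3, 4 and 6 overlap the naive arrays along the marker axis; their Tfec values run from 6.41 to 7.11.

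Tfeb varied with other markers. After group means were removed, Tfeb correlated at 0.72 with the mean of 7 type 2 dendritic cell markers, at -0.69 with the mean of 6 type 1 markers and at -0.69 with the macrophage markers. These belong to 20 such correlations computed, 4 marker lists against 5 members. The type 1 markers averaged 9.86 to 10.34 on exposed arrays and 9.91 to 10.26 on naive arrays. The type 2 markers averaged 10.08 to 10.38 on exposed arrays and 10.31 to 10.45 on naive arrays. For the type 2 markers, exposed arrays 1, 2, 3 and 4 lay below every naive array and exposed array 6 within the naive range. Of these markers Clec4a4 fell by 0.43 (limma adjusted p = 0.0250), Cd7 fell by 0.37 (adjusted p = 0.0237) and Relb rose by 0.25 (adjusted p = 0.0194). With 1 array left out Clec4a4 and Cd7 each failed in 7 of 11 fits and Relb in 2, at adjusted p up to 0.0631, 0.0577 and 0.0577. With the macrophage markers as a covariate none of the 3 passed (adjusted p = 0.0991, 0.0886 and 0.0575). With the macrophage marker mean as a covariate the Tfeb difference was -0.01, and without exposed arrays 1 and 2 it was -0.03.

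Other markers were used to check the sort. The 5 measured shared dendritic cell markers, including Itgax and MHC class II genes, averaged 11.77 to 11.95 on exposed arrays and 11.88 to 11.98 on naive arrays. All 5 differences were negative, with a median of -0.07, and exposed arrays 1, 2 and 3 lay below every naive array. Of the 5 markers 0 passed limma's test (1 at an unadjusted p under 0.05). Of 8 monocyte markers Cx3cr1 rose by 0.46 (limma adjusted p = 0.00866), and the list averaged 6.16 to 6.65 on exposed and 6.03 to 6.64 on naive arrays. The 8 B cell markers averaged 6.87 to 7.25 on exposed and 6.98 to 7.23 on naive arrays, with 0 passing limma's test (4 at an unadjusted p under 0.05). Of 9 neutrophil markers 1 was above the olfactory receptor mark and 0 passed limma's test (1 at an unadjusted p under 0.05). Of 6 T and NK cell markers 2 were above it, 5 differences were positive with a median of 0.27, and 5 markers were at an unadjusted p under 0.05. The NK receptor gene Ncr1 rose by 0.46 (limma adjusted p = 0.0289), a call that failed in 8 of 11 fits with 1 array left out, at adjusted p up to 0.0822 without exposed array 2. The T and NK cell list averaged 5.26 to 5.54 on exposed and 5.13 to 5.26 on naive arrays. The 6 plasmacytoid dendritic cell markers averaged 7.16 to 7.36 on exposed and 7.08 to 7.37 on naive arrays, with 0 passing (0 at an unadjusted p under 0.05).

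The genes whose values ran most like those of Tfec over the 11 arrays were P2ry13, Myo1g, Cxcl10, Sdc4, Klf2, Cfb, Pfkfb3, P2ry12, Epb41l5 and Map3k8, the 10 highest of 11537 ranked genes. Pearson's r lay between 0.97 for P2ry13 and 0.92 for Map3k8. P2ry13 and P2ry12 encode ADP receptors, Cxcl10 an interferon-induced chemokine, Cfb complement factor B, Klf2 a zinc finger factor and Pfkfb3 a regulator of glycolysis. P2ry13 measured 8.86, 8.69, 8.75, 8.28 and 8.19 on the exposed arrays, against 7.46, 8.02, 7.41, 7.61, 7.54 and 7.45 on the naive arrays. As for Tfec, naive array 2 was the highest naive array.

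These genes were chosen for likeness to Tfec, itself chosen for its group difference, so their differences are largely fixed by the choice and are given without a test. After group means were removed, r with Tfec was 0.90 for P2ry13, 0.85 for Map3k8 and 0.84 for Myo1g, and lowest at 0.68 for Epb41l5. P2ry13 was higher in exposed cells by 0.97 ± 0.14 (SE), Cfb by 0.89 ± 0.13, Cxcl10 by 0.80 ± 0.16 and Klf2 by 0.66 ± 0.14. Myo1g and Map3k8 differed by 0.12 and 0.27, so likeness did not require a large difference. In set 1 to 3 alone the differences were larger, at 1.14 for P2ry13, 1.19 for Cfb, 1.07 for Cxcl10 and 0.89 for Klf2. In set 4 to 6 alone they were 0.70, 0.50, 0.43 and 0.32 in the same order. With the macrophage markers as a covariate the difference was 0.76 for P2ry13, 0.76 for Cfb, 0.66 for Cxcl10, 0.45 for Klf2 and 0.38 for P2ry12, the last against 0.65 without it.

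**Figure D3:**
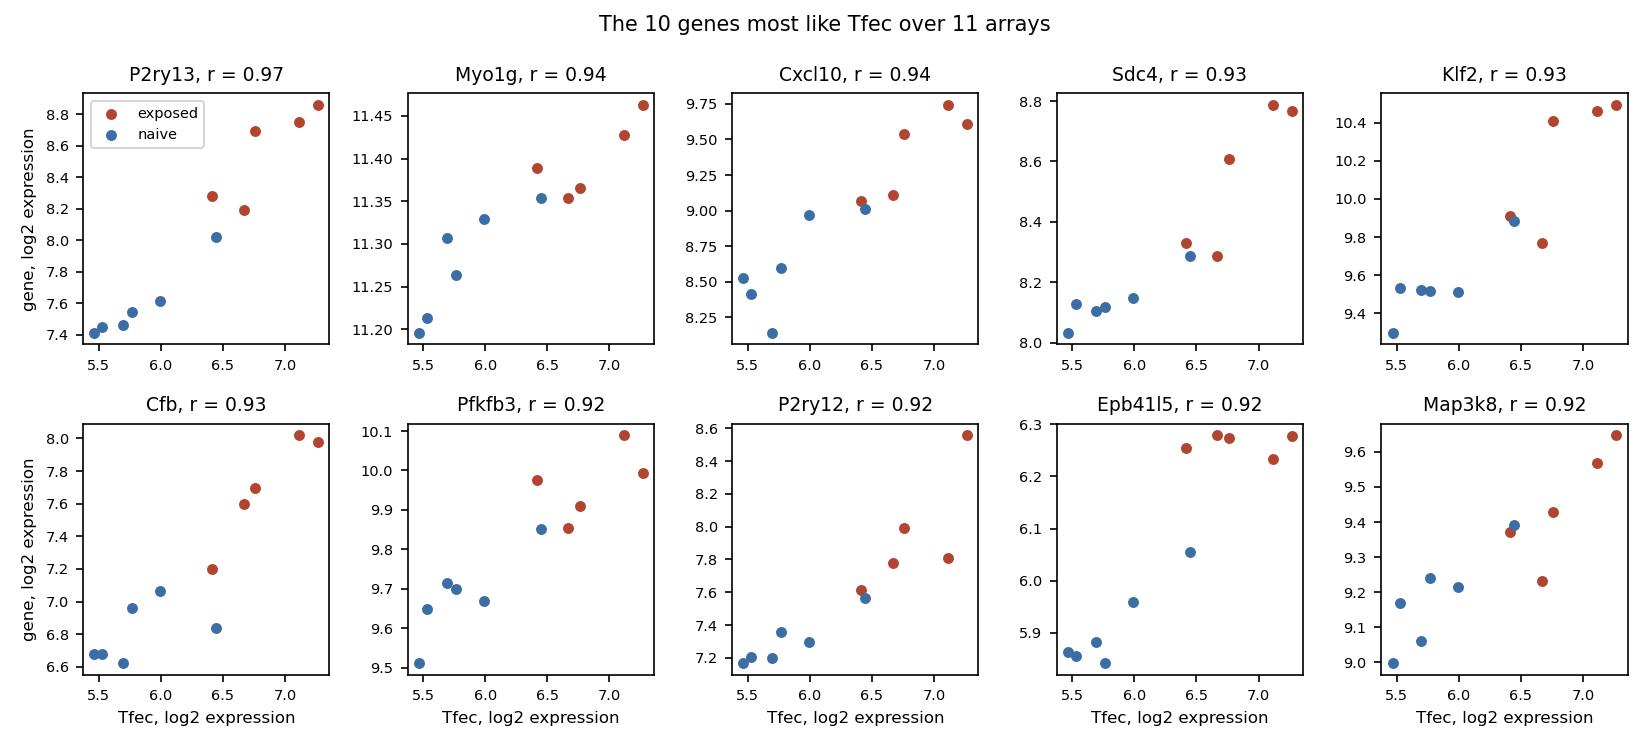
Each panel sets 1 of the 10 genes most like Tfec (vertical axis, log2 expression) against Tfec (horizontal axis, log2 expression), 1 point per array, with Pearson's r over 11 arrays in the panel title. The naive array with the highest Tfec value, 6.45, lies nearest the exposed arrays in most panels.

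The pathway around the factors was read through 10 lists holding 200 measured genes. Of these, 10 passed limma's test, 8 higher and 2 lower in exposed cells, or 5.0% against 1.42% of all genes (0.879% higher and 0.546% lower). The lipid-handling list supplied 6 of them, and it was written with the rises of Fabp5, Lpl and Nr1h3 known. In the other lists 4 of 182 genes passed, or 2.20%. The median difference of the 200 genes was 0.03, beside 0.01 over all genes. At an unadjusted p under 0.05 were 39 of the 200 and 32 of the 182, beside 2710 of all 22180 genes. Positive differences made up 57.5% of the 200 and 53.5% of all genes. The count of 10 was 3 without exposed array 2, 5 without naive array 1 or 6, and 6 without naive array 2, 3 or 5. It was 5 without exposed arrays 1 and 2, and blocking on the number set gave 16.

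Lysosomal genes with CLEAR elements had mostly small differences, and 1 of 28 passed, Lamp1, a major glycoprotein of the lysosomal membrane. Lamp1 measured 11.51, 11.33, 11.28, 11.13 and 11 on the exposed arrays, against 10.92, 10.76, 10.72, 10.75, 10.93 and 10.75 on the naive arrays, with no overlap. It rose by 0.44 ± 0.08 (SE; limma adjusted p = 0.0180). The adjusted p was 0.0577 without exposed array 2 and 0.0796 without exposed arrays 1 and 2 (difference 0.33). The Lamp1 difference was 0.57 in set 1 to 3 and 0.25 in set 4 to 6. In the list 21 of 28 differences were positive with a median of 0.08, and the protease gene Ctsd had the largest, 0.81 (adjusted p = 0.145). The list had 28 promoter windows from 24 genes, and 11 windows held CACGTG (39.3%), against 6.02% of all windows. Its genes were listed for CLEAR elements, which are CACGTG sites, so a high share was built in. The Lamp1 window shown above was among the 11.

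Genes of the proton pump and of autophagy did not pass. Of 24 vacuolar ATPase subunit genes 0 passed limma's test (2 at an unadjusted p under 0.05), 17 differences were positive and the median was 0.04; Atp6v0a4, a dim subunit gene, had the largest absolute difference, -0.21 (adjusted p = 0.254). Of 32 autophagy genes 0 passed (3 at an unadjusted p under 0.05), 11 were positive and the median was -0.03. Atg2a, which encodes a lipid transfer protein of the growing autophagosome, had the largest absolute difference, -0.29 ± 0.07 (SE; adjusted p = 0.0566), and passed without exposed array 1 (-0.32, adjusted p = 0.0419). It also passed with a block for the number set (-0.30, adjusted p = 0.0369), with median centring, with a common 75th percentile and among genes above the olfactory receptor mark alone. CACGTG was present in 2 of 21 vacuolar ATPase windows (9.5%) and 4 of 29 autophagy windows (13.8%), against 6.02% of all windows.

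Among 28 genes that control MiT factors through mTORC1, the Rag GTPases, folliculin and calcineurin, 1 passed. Fnip1 encodes a partner of folliculin, and their complex lets mTORC1 phosphorylate Tfeb and Tfe3. It measured 8.11, 7.97, 8.08, 7.96 and 7.91 on the exposed arrays, against 8.36, 8.29, 8.24, 8.16, 8.29 and 8.22 on the naive arrays, without overlap. Fnip1 fell by 0.25 ± 0.06 (SE; limma adjusted p = 0.0404). The call held without naive array 4 or exposed array 1 and failed in the other 9 fits with 1 array left out, at adjusted p between 0.0563 without exposed array 3 and 0.111 without exposed array 2. Flcn, which encodes folliculin itself, differed by 0.02 (adjusted p = 0.907) and Mtor by -0.02 (adjusted p = 0.958). The Rag GTPase gene Rragd, known as a target of MiT factors, differed by 0.34 (adjusted p = 0.109). It averaged 5.88 in exposed cells and 5.54 in naive cells, the naive mean lying below the olfactory receptor mark. The list's median was below 0.01.

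Targets outside the lysosome gave scattered calls. Of 15 osteoclast and macrophage genes bound by Mitf and its partners, 1 passed: Car2, a carbonic anhydrase used in bone resorption, rose by 0.79 ± 0.11 (SE; limma adjusted p = 0.00564). It averaged 8.61 ± 0.14 (SD, n = 5) in exposed cells and 7.82 ± 0.26 (SD, n = 6) in naive cells without overlap, and it passed with every single array left out. The osteoclast protease gene Ctsk was dim, at 4.46 in exposed and 4.47 in naive cells, with a difference of -0.01 (adjusted p = 0.988), and Acp5, the tartrate-resistant phosphatase gene, differed by 0.20 (adjusted p = 0.518). Melanocyte genes gave 0 of 12 (1 at an unadjusted p under 0.05), with 3 above the olfactory receptor mark; tyrosinase, Tyr, differed by -0.19 (adjusted p = 0.238). CATGTG, the core of the Mitf sites of pigment genes, was present in 6 of the 7 windows found for this list, against 12.3% of all windows. The 7 windows covered 6 of the 12 genes. As the site is known from pigment genes, a high share was built in.

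Lipid-handling genes often seen with Gpnmb in macrophages held 5 rises and 1 fall among 18 measured members. Nr1h3, the oxysterol receptor LXR alpha, measured 8.89, 8.88, 8.47, 8.29 and 8.17 on the exposed arrays, against 7.45, 7.70, 7.14, 7.42, 7.72 and 7.26 on the naive arrays, with no overlap, and it rose by 1.09 ± 0.15 (SE; limma adjusted p = 0.00409). Lpl, lipoprotein lipase, rose by 1.04 ± 0.20 (SE; limma adjusted p = 0.0239), and Fabp5, a fatty acid carrier, by 1.01 ± 0.08 (adjusted p = 0.00026). The remaining rises, named after their values were seen, were Fabp4 at 0.91 (adjusted p = 0.0338) and the protease inhibitor Cst7 at 0.46 (adjusted p = 0.0183). Fabp4 averaged 5.64 in exposed cells and 4.73 in naive cells, the naive mean lying below the olfactory receptor mark. Its call failed in 7 of 11 fits with 1 array left out, at adjusted p up to 0.0967 without exposed array 2, and with the macrophage markers as a covariate (0.64, adjusted p = 0.128). Cst7 failed without exposed array 2 (adjusted p = 0.0598). Clec7a, the beta-glucan receptor Dectin-1, fell by 0.53 ± 0.11 (SE; adjusted p = 0.0374), and this call failed in 9 of 11 fits with 1 array left out, at adjusted p up to 0.111 without exposed array 2. Lpl failed without naive array 1, 3 or 6 or exposed array 2, at adjusted p up to 0.0734. As the mean of its 2 probesets the Lpl difference was 0.63 (adjusted p = 0.0434), with the macrophage markers as a covariate 0.67 (adjusted p = 0.0334), and without exposed arrays 1 and 2 it was 0.77 (adjusted p = 0.101). Trem2, the lipid receptor that marks such macrophages, was near the olfactory receptor mark, at 5.86 in exposed and 5.89 in naive cells, and Apoe differed by -0.04 (adjusted p = 0.961).

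Interleukin 4 response genes gave no calls: 0 of 19 passed limma's test (4 at an unadjusted p under 0.05), 11 were positive and the median was 0.06. Arg1, Retnla and Chil3, the usual marks of that response in macrophages, averaged 4.99, 3.97 and 4.27 in exposed cells and 4.93, 4.07 and 4.51 in naive cells, means that all lay below the olfactory receptor mark, although Chil3 reached 6.31 on 1 naive array. Egr2 had the largest absolute difference, 0.50 (adjusted p = 0.156). Csf3r, the receptor for granulocyte colony-stimulating factor and a reported Tfec target in macrophages, measured 8.63, 8.54, 8.35, 8.20 and 8.20 on the exposed arrays, against 7.86, 8.17, 7.97, 8.04, 8.07 and 8.04 on the naive arrays. Every exposed array lay above every naive array, as for 1.42% of all genes. Its difference of 0.36 ± 0.09 (SE) had an adjusted p of 0.0589, and it passed without exposed array 4 (0.41, adjusted p = 0.0491), without exposed array 6 (adjusted p = 0.0347) and with a block for the number set (0.35, adjusted p = 0.0401). Set 1 to 3 alone gave 0.51 and set 4 to 6 gave 0.15, and the value was 0.22 with the macrophage markers as a covariate (adjusted p = 0.179). Without exposed arrays 1 and 2 it was 0.23 (adjusted p = 0.267).

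Among 6 partners and sheddases of the Gpnmb protein, Sdc4, which encodes its binding partner syndecan-4, passed. Sdc4 rose by 0.42 ± 0.09 (SE; limma adjusted p = 0.0435), at 8.56 ± 0.24 (SD, n = 5) in exposed cells and 8.14 ± 0.08 (SD, n = 6) in naive cells, and it was also among the genes most like Tfec. Its difference was 0.58 in set 1 to 3 and 0.18 in set 4 to 6, and it was 0.30 with the macrophage markers as a covariate (adjusted p = 0.157). Without exposed array 2 its adjusted p was 0.117, the highest of the 9 failing fits. The sheddase genes Adam10 and Adam17 differed by -0.01 (adjusted p = 0.977) and 0.13 (adjusted p = 0.440). Of 18 other leucine zipper factors that bind E-boxes 0 passed (3 at an unadjusted p under 0.05), with a median of 0.05; Mxd4, a Max partner, had the largest absolute difference, -0.26 (adjusted p = 0.0983), and passed without exposed array 1 (-0.31, adjusted p = 0.0432).

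**Figure D4:**
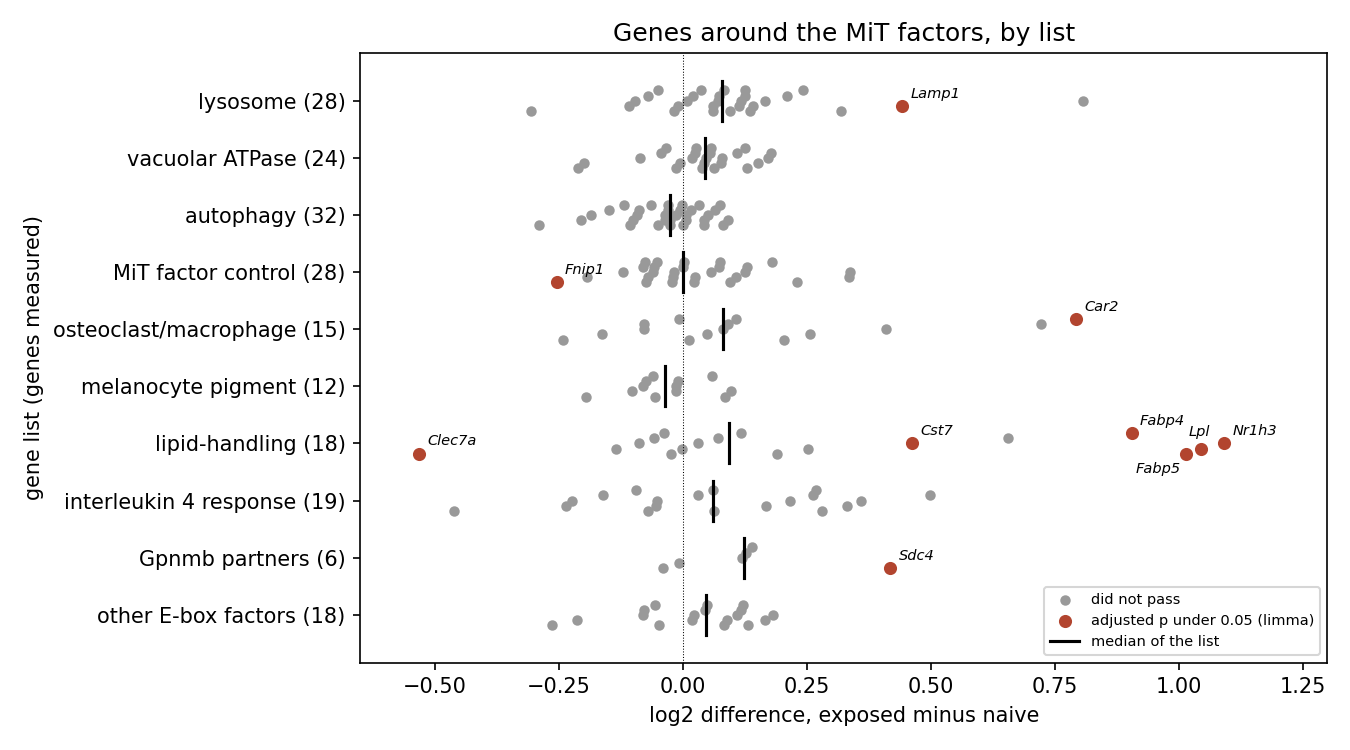
Log2 difference, exposed minus naive, of each measured gene in the 10 lists; coloured points passed limma's test at an adjusted p under 0.05, grey points did not, and vertical bars give list medians. The 10 called genes are named, 6 of them in the lipid-handling list, while the vacuolar ATPase and autophagy genes cluster near 0.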

How the data were processed

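Total RNA of sorted splenic dendritic cells was measured on 1-colour arrays, 1 array per sample (5 exposed, 6 naive). The deposited values are log2 expression per probeset, made by the authors with RMA per the submitters' processing notes; the version and genome build are not given in the sources used here. RMA compresses small differences of dim genes. Of 41801 probesets 7329 were blank on every array; 23521 of the others named 1 gene in the platform annotation. Array medians lay between 5.53 and 5.61, and the number of arrays limits the precision.

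Differences were fitted with limma 3.58.1 in R 4.3.3 (lmFit, eBayes with trend) as exposed minus naive over 22180 genes, with Benjamini-Hochberg adjustment over all of them; genes passed at an adjusted p under 0.05. The fit was tested on simulated data. The members, lists and alternatives were chosen with earlier results of these data known. Genes were named by rule as up to 3 called genes per list and direction, or the largest difference where none was called, Csf3r, and the 10 genes with the highest Pearson's r with Tfec; other listed genes were named for their role after their values were seen. Alternatives covered the prior, scaling, dim genes, probesets, blocks, marker covariates and single arrays.

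Whether replicate numbers pair the arrays was not settled, and the main fit used no pairing. Correlations of same-numbered arrays after removal of group means lay between 0.0880 and 0.231, beside 0.127 on average within a number set. In the labels, 1 exposed array carries 6 in the title but 5 as its labelled replicate. Listed genes without a measured probeset of their own were not analysed here.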

Additional observations from a re-analysis of the deposited data

Results flagged for a closer look

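The gap between the highest or lowest array and the nearest other, divided by the group's range, passed Dixon's 95% critical value for 5 of the 56 gene and group combinations examined (28 genes in 2 groups), and by construction of that value chance passes it in about 1 in 20 groups. Mitf was lowest on naive array 6, at 6.67, with the other naive arrays at 6.82 to 6.91. Tfeb was highest on naive array 3, at 6.90, and Tfe3 was highest on the same array, at 9.54. P2ry13 was highest on naive array 2, at 8.02, the array with the highest naive Tfec value. Egr2 was lowest on naive array 1, at 8.30. None of the exposed arrays stood apart by the same measure for the 28 genes.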

How the results depend on the processing

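Under the 27 alternatives the differences of Tfec, Mitf, Tfeb and Gpnmb moved by less than their SD pooled within groups, which was 0.35, 0.093, 0.103 and 0.21. Tfeb still ran from -0.15 within arrays 1 to 3 to -0.015 with the macrophage marker covariate. With 1 array left out Tfec ranged from 0.92 to 1.16, Mitf from 0.14 to 0.19, Tfeb from -0.14 to -0.05 and Gpnmb from 0.35 to 0.52. Tfe3 moved to -0.051 with arrays shifted to a common 75th percentile and to 0.024 within arrays 4 to 6, and ranged from -0.03 to 0.01 with 1 array left out. The count of 316 changed genes was 617 with the number set as a block, 11 within arrays 1 to 3, 5 within arrays 4 to 6 and 99 without exposed arrays 1 and 2, an alternative chosen after seeing the data; with 1 array left out it ranged from 104 to 395. The 10 called pathway genes became 16, 1, 1 and 5 in the same order, and 3 to 11 with 1 array left out. As a replicate block, the title's number gave 341 changed genes and 9 pathway genes, and the characteristic's number gave 182 and 4; for 2 of the 5 numbers the same-numbered naive array was the closest one. With the common 75th percentile 43.0% of called genes were higher in exposed cells, against 61.7% in the deposited values, and the median of all genes shifted by -0.04. That shift applies to every gene alike, so counts of positive differences in the lists depend on the scaling. Fits within a number set hold 3 arrays against 3 or 2 against 3, which limits what they can call. Signal near the olfactory receptor mark limits Tfec and Gpnmb in naive cells.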
